A study of Homo sapiens with 6 samples.

Results

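Excision, mismatch and translesion repair are the pathways by which cells remove damaged or mispaired bases from DNA, or copy past them. Their genes were followed here in HEY cells, a long-established line of human ovarian cancer, after transfection with an siRNA against CCNL2. A set of 35 genes was chosen by name: 13 of nucleotide excision repair, 10 of base excision repair, 7 of translesion synthesis and 5 of mismatch repair. Each name matched 1 row of the deposited count table, which lists 60835 distinct gene names, and all 35 had enough reads to be tested. The study compared 3 RNA-seq libraries of cells given the CCNL2 siRNA (siCCNL2) with 3 of cells given the siRNA labelled siNC, taken here as the control. The labels name no engineered allele, describe the same 48 h for all 6 libraries, and do not say whether replicate libraries were cultured separately. CCNL2 encodes cyclin L2, a cyclin known for its link to pre-mRNA splicing. A single cell line and a single siRNA group are what the comparison can speak for.

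Nucleotide excision repair cuts out a short stretch of strand around bulky damage such as the lesions left by ultraviolet light or platinum drugs. Base excision repair starts with a glycosylase that removes 1 damaged base. Mismatch repair recognises replication errors through MutS complexes, and translesion polymerases insert bases opposite lesions that stall the replicative polymerases. In ovarian cancer these pathways are studied for their bearing on the response to platinum drugs and PARP inhibitors.

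Library totals ran from 13596286 to 18095529 counted reads. Mitochondrial genes took 3.22% to 3.39% of counts in the siNC libraries and 3.43% to 3.77% in the siCCNL2 libraries; the part of this difference in the results was not tested. Squared differences between libraries of 1 group averaged 2.20 to 3.66 times what read sampling alone gives. CCNL2 itself stood at 261, 267 and 246 CPM (reads per library scaled to a common total) with siNC and at 203, 182 and 186 CPM with siCCNL2, a log2 difference of -0.44 (SE 0.0439, adjusted p = 2.15e-08). The targeted transcript was therefore lower in every siCCNL2 library, with 190 CPM remaining on average of 258. The keratin genes KRT8, KRT18 and KRT7 averaged 998, 302 and 748 CPM in the siNC libraries, and the Müllerian lineage gene PAX8 averaged 131 CPM. Of 7 epithelial and ovarian carcinoma markers tested, 5 were called lower with siCCNL2, these genes at 847, 259, 498 and 116 CPM among them. Over all genes 16.5% were called lower. KRT19 and EPCAM were not called, and EPCAM was higher in every siCCNL2 library, averaging 2.72 against 1.84 CPM (0.58, adjusted p = 0.0856). The part of these markers in the results below was not tested. The mesenchymal genes VIM and FN1 were also high, at 1475 and 992 CPM, and were not called, and the third mesenchymal marker, CDH2, rose from 128 to 148 CPM (0.21, adjusted p = 3.53e-04). The epithelial gene CDH1 had 1 to 3 reads and MUC16 0 to 7 reads in each library. CD68 and DCN, markers of macrophages and fibroblasts, had 0 reads in all 6 libraries, and the leukocyte marker PTPRC had 0 to 4. The endothelial marker PECAM1, at 12 to 44 reads per library, fell from 2.38 to 0.915 CPM.

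Of the 35 repair genes, 10 rose, 6 fell and 19 did not pass the test (edgeR's quasi-likelihood test, Benjamini-Hochberg adjusted p under 0.05 over all 15346 genes tested). The genes that rose were XPC, GTF2H1 and DDB2 of nucleotide excision, UNG, APEX1, PARP1 and MUTYH of base excision, MSH3 and MSH6 of mismatch repair and POLH of translesion synthesis. Those that fell were DDB1, ERCC1, ERCC2 and ERCC3 of nucleotide excision, NTHL1 of base excision and REV3L of translesion synthesis. The share called, 45.7%, stands beside 33.6% of all genes tested. By direction, 17.2% of all genes were called higher and 16.5% were called lower. Without any test, the 3 siCCNL2 libraries lay entirely above or below the 3 siNC libraries for 19 of the repair genes, 11 above and 8 below, beside 43.9% of all genes, 22.1% above and 21.8% below. An exact permutation test of 3 against 3 libraries always gives 0.1 where the groups do not overlap, the smallest p that the design allows. For these 19 genes it therefore adds nothing to the lack of overlap.

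The differences were small. The median log2 difference of the 35 genes was 0.045, beside 0.002 for all genes, and the median size of the difference regardless of sign was 0.150, beside 0.193 for all genes. Only 6 of the 35 moved by 1.25-fold or more in either direction: XPC, GTF2H1, UNG and MUTYH upward, and NTHL1 and REV3L downward. The 35 genes together held 0.240% to 0.245% of all counts in the siNC libraries and 0.248% to 0.249% in the siCCNL2 libraries, so that every siCCNL2 library was above every siNC library. Such a separation upward was also seen for 22.1% of all single genes. The genes with the most reads weigh most in this sum, so it does not describe each of the 35. In such bulk RNA, more RNA per cell and a change in which cells make up the culture cannot be told apart.

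**Figure D1:**
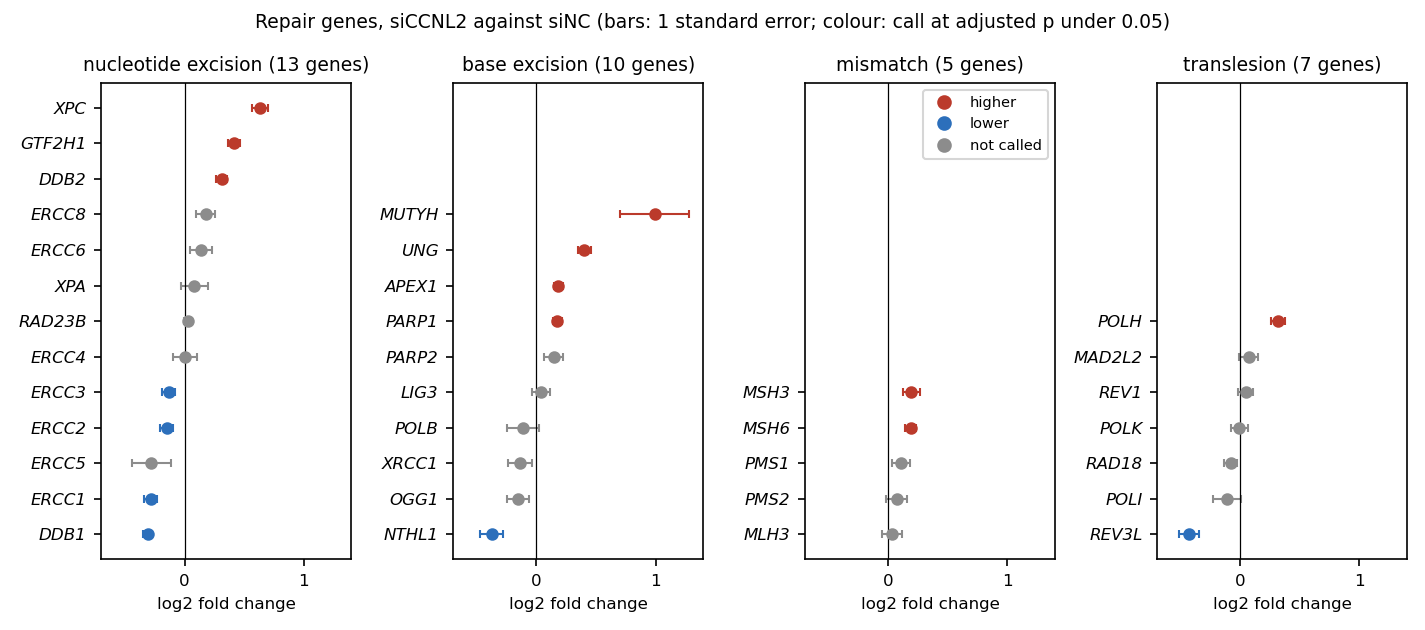
Each row is 1 of the 35 repair genes, with a panel per pathway, and the horizontal axis is the log2 fold change of siCCNL2 over siNC; bars are 1 standard error from the edgeR fit, red and blue points were called higher and lower, and grey points were not called. MUTYH has the largest difference, 0.99, with the longest bar, and all but XPC of the others lie within 0.43 of 0.

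The genes also differed widely in abundance. On the deposited length-scaled values, which resemble TPM (transcript abundance corrected for length) and allow genes to be compared with each other, APEX1 was the most abundant in the siNC libraries at 321 ± 1.03 (SD, n = 3). RAD23B followed at 281 ± 5.41, DDB1 at 262 ± 1.02 and PARP1 at 119 ± 1.39, and the 3 libraries of each of these genes did not overlap those of the next. DDB2 came next at 102 ± 4.57 and UNG at 86.5 ± 6.21. At the lower end stood ERCC6 at 5.36 ± 0.297, POLI at 5.13 ± 0.411, ERCC5 at 4.45 ± 0.643 and MUTYH at 1.59 ± 0.443, of which ERCC6, POLI and ERCC5 overlapped between neighbours. The most abundant genes of the set were thus base excision and damage-recognition components, and the least abundant was the glycosylase gene MUTYH.

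**Figure D2:**
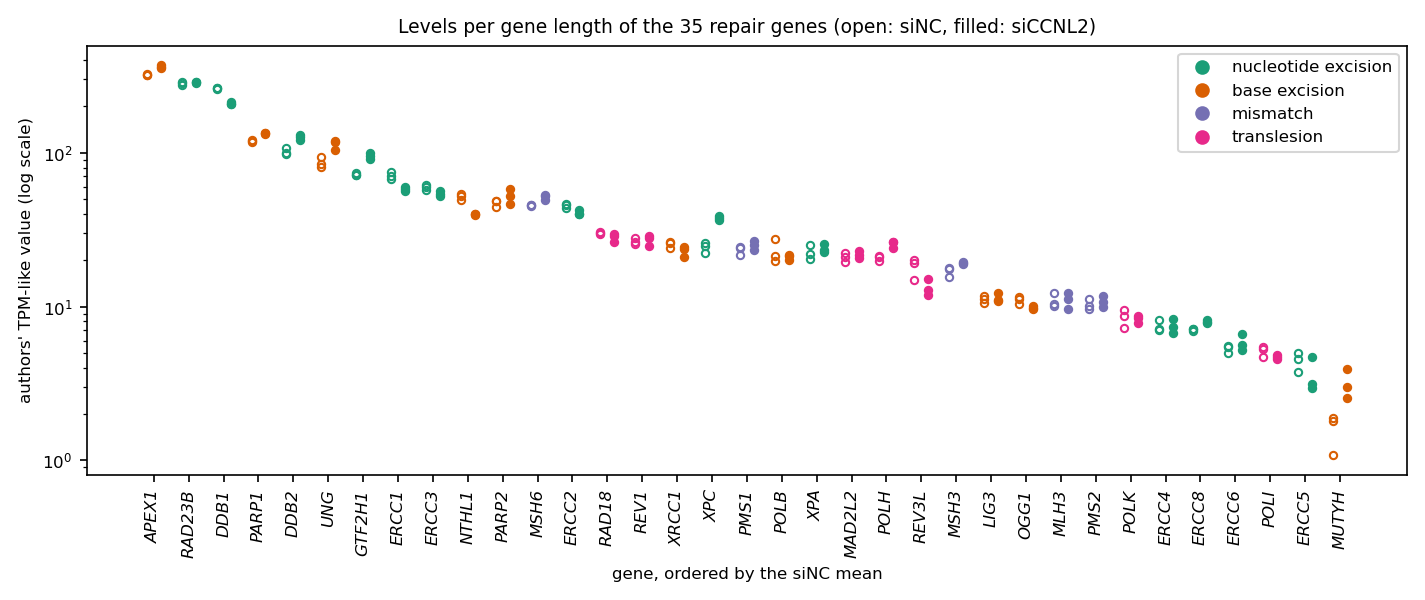
Points are the 6 libraries for each repair gene, on a log axis of the deposited length-scaled (TPM-like) value, with siNC open and siCCNL2 filled, colour for the pathway and genes ordered by their siNC mean. The genes span from about 1.59 for MUTYH to 321 for APEX1 in the siNC means, a range far wider than any difference between the groups.

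Among the genes that recognise damage in nucleotide excision repair, XPC and DDB2 rose while DDB1 fell. XPC encodes the sensor that finds helix distortion across the genome. It lies on chromosome 3 from 14145147 to 14178621 on the minus strand of GRCh38. Its level was 29.1, 26.5 and 30.8 CPM with siNC and 45.3, 44.5 and 44.5 CPM with siCCNL2. All siCCNL2 libraries were close together and well above the controls, a 1.55-fold rise (log2 difference 0.64, SE 0.0667, adjusted p = 5e-08). The XPC exons share bases with 3 annotated genes on the opposite strand, of which LSM3 (0.13, adjusted p = 0.149) and XPC-AS1 (0.33, adjusted p = 0.177) were not called.

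DDB2 and DDB1 encode the 2 subunits of the UV-damaged DNA-binding complex. DDB2 gives the complex its affinity for ultraviolet lesions, and DDB1 is also the adaptor of the much wider family of CUL4 ubiquitin ligases. DDB2, on chromosome 11 from 47214465 to 47239217, stood at 99.99, 107 and 100.2 CPM with siNC and at 129, 131 and 122 CPM with siCCNL2. The groups did not overlap, and the rise was 1.24-fold (log2 difference 0.31, SE 0.046, adjusted p = 8.21e-06). DDB1, on the same chromosome from 61299451 to 61342596, went the other way: 414, 418 and 424 CPM with siNC against 325, 344 and 343 CPM with siCCNL2. That is a log2 difference of -0.31 (SE 0.0352, adjusted p = 1.68e-07), and every siCCNL2 library lay below every siNC library.

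Because both genes of a complex can be read per length in the same library, the ratio of the 2 deposited length-scaled values was also formed for 6 partner pairs picked after their values had been seen, so these ratios describe the libraries and carry no test. The DDB2 to DDB1 ratio was 0.383, 0.407 and 0.375 with siNC and 0.628, 0.602 and 0.566 with siCCNL2, without overlap. XPC and RAD23B, whose product stabilises the XPC protein, gave 0.087, 0.081 and 0.090 with siNC and 0.135, 0.128 and 0.131 with siCCNL2. Of these genes only XPC was called, and RAD23B stood at 376, 367 and 386 CPM against 377, 392 and 384 CPM (0.03, adjusted p = 0.546). The ratio of MSH6 to MSH3 was 2.71 ± 0.193 and 2.69 ± 0.0991 (SD, n = 3) and overlapped between groups, as did that of XRCC1 to LIG3, at 2.27 ± 0.207 and 2.01 ± 0.147.

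**Figure D3:**
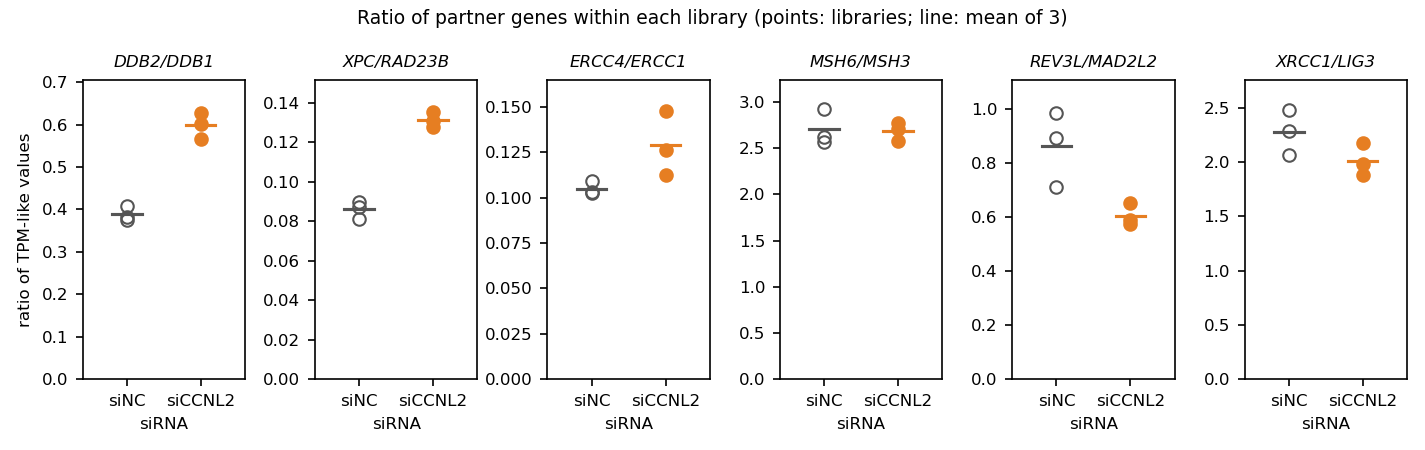
Each panel is 1 partner pair, the vertical axis is the ratio of the deposited length-scaled values within a library, and points are the 3 siNC and 3 siCCNL2 libraries with a line at each mean. The DDB2 to DDB1 and XPC to RAD23B ratios separate the groups upward, as does ERCC4 to ERCC1 by a narrow margin. The REV3L to MAD2L2 ratio separates them downward, while MSH6 to MSH3 and XRCC1 to LIG3 overlap.

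The genes for unwinding and cutting split as well. GTF2H1 encodes the p62 subunit of TFIIH, the complex that opens the helix around the lesion and also serves transcription. It stood at 71.5, 69.9 and 70.5 CPM with siNC and 96.3, 92.4 and 93.8 CPM with siCCNL2, a 1.33-fold rise (log2 difference 0.42, SE 0.0476, adjusted p = 1.95e-07). The 2 helicase subunits of the same complex were lower by a small margin. ERCC2, which encodes XPD, averaged 60.6 CPM with siNC and 54.6 CPM with siCCNL2 (-0.15, SE 0.0531, adjusted p = 0.0315). ERCC3, which encodes XPB, averaged 78.1 and 71.1 CPM (-0.13, SE 0.0508, adjusted p = 0.0442). Both calls are near the threshold: over the 16 alternative settings the adjusted p of ERCC2 reached 0.126, without siCCNL2 replicate 3 (-0.13), and that of ERCC3 reached 0.178, without siNC replicate 3 (-0.10). The ERCC2 call also ended without siNC replicate 1 or 2 or siCCNL2 replicate 2 (adjusted p = 0.0871, 0.0968 and 0.0614), and the ERCC3 call without siNC replicate 2 or any 1 siCCNL2 library (adjusted p from 0.0587 to 0.139).

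ERCC1 encodes the partner of the XPF nuclease, which makes the cut on the 5′ side of the lesion. It lies on chromosome 19 from 45407334 to 45478828 and stood at 74.0, 76.8 and 83.0 CPM with siNC and at 64.8, 65.7 and 61.7 CPM with siCCNL2. The siCCNL2 libraries were all below the controls (log2 difference -0.28, SE 0.0544, adjusted p = 2.24e-04). ERCC1 shares 1593 exon bases, 28.6% of its exon length, with POLR1G on the opposite strand, a gene called higher (0.30, adjusted p = 0.0401). The sources used here do not say whether reads were counted by strand. ERCC4, which encodes XPF itself, had a log2 difference of 0.00 (adjusted p = 0.977). The ratio of ERCC4 to ERCC1 moved from 0.105 ± 0.0035 to 0.129 ± 0.0177 (SD, n = 3), without overlap by a narrow margin.

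The other 6 genes of the nucleotide excision group did not pass the test (53.8% of the group called, beside 33.6% of all genes). ERCC8, which encodes the CSA protein of transcription-coupled repair, was at 21.0, 21.8 and 22.2 CPM against 23.5, 25.1 and 25.0 CPM, without overlap (0.18, adjusted p = 0.0839). Its partner gene ERCC6, encoding CSB, had a difference of 0.14 (adjusted p = 0.258). ERCC5, which encodes the XPG nuclease, was at 6.38, 7.83 and 8.66 CPM against 7.95, 5.22 and 5.41 CPM (-0.28, adjusted p = 0.215). Its siCCNL2 libraries overlapped the controls through replicate 1 alone, and without that library the difference was -0.51 with an adjusted p of 0.0253. ERCC5 also shares 63.2% of its exon bases with the same-strand readthrough gene BIVM-ERCC5. XPA, the scaffold that checks the lesion, had a difference of 0.08 (adjusted p = 0.62).

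In the base excision group 4 of 10 genes rose and 1 fell (50% called, beside 33.6% of all genes). UNG encodes uracil-DNA glycosylase, which removes uracil from DNA, and lies on chromosome 12 from 109097597 to 109126725. Its level was 75.4, 78.8 and 87.9 CPM with siNC and 109, 99.9 and 110.1 CPM with siCCNL2. The groups did not overlap, and the rise was 1.32-fold (log2 difference 0.40, SE 0.0557, adjusted p = 3.6e-06). The glycosylase for oxidised pyrimidines, NTHL1, went down, from 17.0, 18.7 and 18.4 CPM to 13.5, 14.4 and 13.8 CPM. Its level was 1.30-fold lower (log2 difference -0.38, SE 0.0936, adjusted p = 0.00277), and no library crossed between the groups. NTHL1 shares 402 exon bases, 16.5% of its exon length, with TSC2 on the opposite strand, which also fell (-0.28, adjusted p = 1.54e-04).

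MUTYH encodes the glycosylase that removes adenine paired with oxidised guanine. It had the largest difference of the 35 genes and the fewest reads: 26, 14 and 24 with siNC and 58, 34 and 33 with siCCNL2. As levels these are 1.54, 0.884 and 1.51 CPM against 3.18, 2.54 and 2.10 CPM, a 1.99-fold rise (log2 difference 0.99, SE 0.290, adjusted p = 0.00969). Leaving out siNC replicate 2 gave 0.78 with an adjusted p of 0.0597, and leaving out siCCNL2 replicate 1 gave 0.81 with 0.0693, so that neither passed. TOE1, which shares 14.1% of the MUTYH exon bases on the opposite strand, averaged 29.3 CPM in the siNC libraries, many times the MUTYH level, and was not called (-0.06, adjusted p = 0.607). OGG1, which removes the oxidised guanine itself, was at 16.7, 17.9 and 18.8 CPM against 15.4, 16.3 and 16.4 CPM, below the controls without overlap but not called (-0.15, adjusted p = 0.21).

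After the glycosylase, APEX1 encodes the endonuclease that cuts the strand at the empty site. It stood at 187, 188 and 189 CPM with siNC and at 205, 218 and 218 CPM with siCCNL2, a narrow but non-overlapping rise (log2 difference 0.18, SE 0.0391, adjusted p = 7e-04). It shares 54 exon bases with PIP4P1 on the opposite strand, which fell (-0.51). PARP1, the sensor of the resulting strand break and the main target of PARP inhibitors, stood at 236, 240.4 and 245 CPM against 263, 281 and 271 CPM (log2 difference 0.17, SE 0.0376, adjusted p = 7.76e-04). Its paralog PARP2 had a difference of 0.15 that did not pass (adjusted p = 0.171). Its siCCNL2 libraries held 33.1, 38.3 and 29.8 CPM, and without the last of them, replicate 3, the difference was 0.23 with an adjusted p of 0.0465.

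The genes of this set that fill and seal the gap were not called. POLB, the gap-filling polymerase, was at 9.27, 8.59 and 12.2 CPM against 9.33, 9.10 and 9.29 CPM (-0.11, adjusted p = 0.549). XRCC1, the scaffold of the single-strand break complex, had a difference of -0.14 (adjusted p = 0.299), and its ligase partner LIG3 had 0.04 (adjusted p = 0.765). In this pathway the genes that rose thus encode 2 glycosylases, the endonuclease and the break sensor. The glycosylase gene NTHL1 fell, OGG1 was not called, and the MUTYH call ended without siNC replicate 2 or siCCNL2 replicate 1. None of the 3 set genes for filling, scaffolding and sealing passed, also at an unadjusted p under 0.05 or in DESeq2 and limma-voom. With 33.6% of all genes called, 3 genes are too few to set these steps apart from the earlier ones. Some resynthesis genes shared with replication, outside the set and described below, did rise.

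Both mismatch repair genes that rose encode partners of the same MutS core subunit. MSH6 encodes the partner for single mispairs, and MSH3 encodes the partner for larger loops. MSH6, on chromosome 2 from 47695530 to 47810063, stood at 113, 113 and 114 CPM with siNC and 122, 134 and 132 CPM with siCCNL2 (log2 difference 0.19, SE 0.0455, adjusted p = 0.00215). MSH3, on chromosome 5 from 80654652 to 80876815, stood at 25.7, 25.3 and 22.8 CPM against 27.6, 28.3 and 28.5 CPM (log2 difference 0.19, SE 0.0752, adjusted p = 0.0499). Neither gene overlapped between groups, but the MSH3 call held under only 1 of the 16 alternative settings, and it ended without any 1 of the 6 libraries, with adjusted p from 0.0503 without siNC replicate 1 to 0.199 without siNC replicate 3 (0.14). The 3 genes of the MutL side that were followed had differences of 0.11 for PMS1, 0.07 for PMS2 and 0.03 for MLH3 (adjusted p = 0.313, 0.591 and 0.807). PMS2 has near-identical pseudogene copies that can take some of its reads, so its value is uncertain. No gene of this group was called lower, also at an unadjusted p under 0.05 or in DESeq2 and limma-voom, where 0 were. Over all genes only 16.5% were called lower, so 0 in so small a group is unremarkable. The 40% of this group called, the MSH3 call included, stood beside 33.6% of all genes.

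In translesion synthesis, POLH rose and REV3L fell (28.6% called, beside 33.6% of all genes). POLH encodes polymerase eta, which copies past ultraviolet dimers and platinum crosslinks. It lies on chromosome 6 from 43576185 to 43620523 and stood at 53.4, 57.0 and 58.5 CPM with siNC and at 70.9, 73.5 and 66.0 CPM with siCCNL2. The groups were apart, a rise just short of 1.25-fold (log2 difference 0.32, SE 0.0565, adjusted p = 9.44e-05).

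REV3L encodes the catalytic subunit of polymerase zeta, which extends from the inserted base, and lies on the same chromosome from 111299028 to 111483715. It stood at 68.3, 70.7 and 53.8 CPM with siNC and at 52.8, 47.0 and 42.7 CPM with siCCNL2. The lowest control and the highest siCCNL2 library nearly met, and the level was 1.35-fold lower (log2 difference -0.43, SE 0.0824, adjusted p = 2.02e-04). The other subunit followed, MAD2L2, had a difference of 0.07 (adjusted p = 0.549). The REV3L to MAD2L2 ratio was 0.985, 0.891 and 0.712 with siNC and 0.652, 0.588 and 0.575 with siCCNL2. The insertion polymerases REV1, POLI and POLK had differences of 0.04, -0.12 and -0.01, with adjusted p of 0.628, 0.491 and 0.94. RAD18, the ligase that marks PCNA for polymerase switching, was at 57.9, 56.0 and 57.5 CPM against 55.6, 51.5 and 54.8 CPM, below without overlap but not called (-0.08, adjusted p = 0.287).

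**Figure D4:**
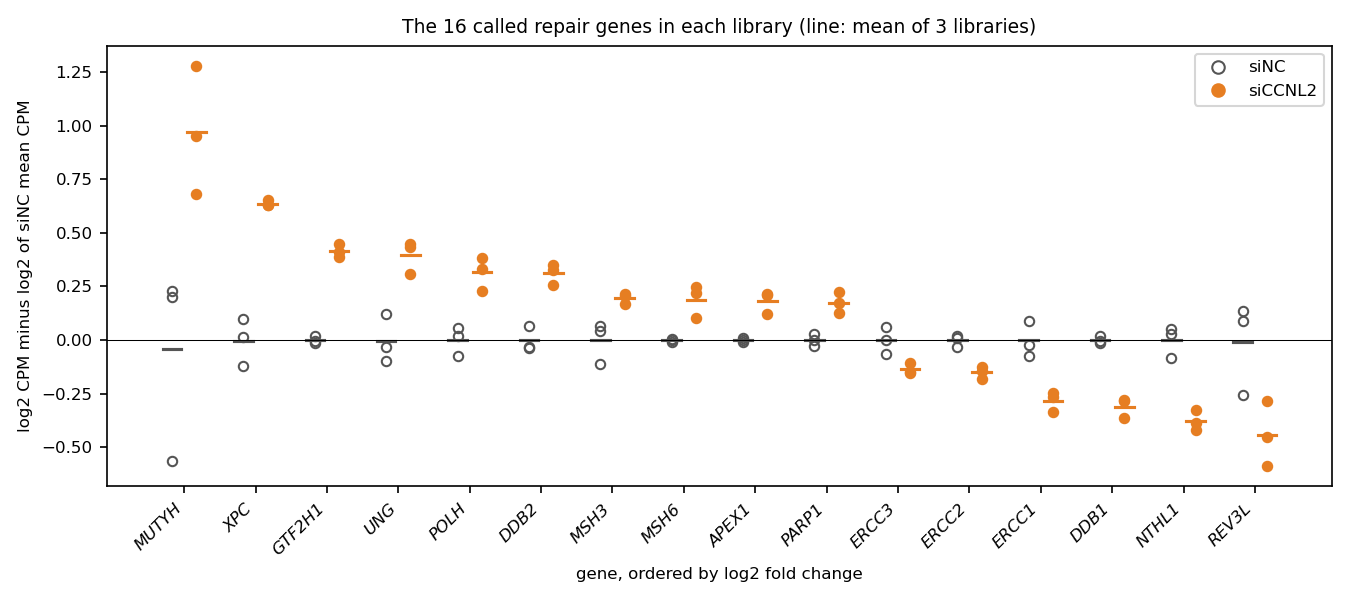
For each of the 16 called genes, points give every library's CPM as a log2 difference from the siNC mean of that gene, with siNC open, siCCNL2 filled and a line at the mean of 3 libraries. The groups do not overlap in any of these 16 genes, REV3L comes closest to overlap, and MUTYH has the widest scatter.

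The promoters of the repair genes were read for 7 short motifs, chosen after the expression values were known. RefSeq promoter windows (GRCh38.p14, 250 bases before to 50 after a listed start) matched 34 of the 35 genes, all but POLB. Each gene counted once if any of its windows held a match on either strand. The E2F-type letters TTTCCCGC, TTTGGCGC, TTTGCCGC or TTTCGCGC, the kind of site known from genes of the replication phase, were in 7 of the 34 genes (20.6%) and in 6.55% of the 10751 tested genes with a window. Of the 10 genes that rose, 4 held them (XPC, MSH3, MSH6 and UNG). Among the 6 that fell, only REV3L did, and among the 18 uncalled genes with a window, PMS2 and POLI did. Over all genes with a window the letters were in 7.07% of those called higher and 4.92% of those called lower. The matches are shown for the 4 genes that rose and for REV3L, 5′ to 3′ on the gene's strand with the matched letters in capitals, because they let the promoters of genes that moved in both directions be compared.
XPC, chr3:14178809-14178851, minus strand: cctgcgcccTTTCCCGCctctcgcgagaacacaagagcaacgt
MSH3, chr5:80654519-80654582, plus strand: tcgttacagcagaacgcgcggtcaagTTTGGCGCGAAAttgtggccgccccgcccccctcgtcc
MSH6, chr2:47783137-47783166, plus strand: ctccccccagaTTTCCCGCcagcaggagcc
UNG, chr12:109098098-109098127, plus strand: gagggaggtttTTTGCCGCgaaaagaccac
REV3L, chr6:111483273-111483332, minus strand: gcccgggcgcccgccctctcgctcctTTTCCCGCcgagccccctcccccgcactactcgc
In MSH3 a pair of matches, 1 on each strand, overlap within the capitals. The XPC, MSH6 and REV3L windows carry the same 8 letters although XPC and MSH6 rose and REV3L fell.

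DDB2, XPC and POLH are also known targets of p53. The p53 half-site searched, with its purine and pyrimidine ends, was in 2 of the 34 genes (5.88%), DDB2 and UNG, and in 7.66% of all tested genes with a window. DDB2 is shown because a pair of half-sites stand almost side by side just after its start:
DDB2, chr11:47214975-47215003, plus strand: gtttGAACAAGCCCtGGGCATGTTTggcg
For the other motifs the share of the 34 genes and of all genes with a window was 41.2% and 42.9% for CCAAT, 82.4% and 76.0% for the GC box GGGCGG, and 23.5% and 12.2% for the E-box CACGTG. It was 20.6% and 9.80% for the ETS letters CCGGAAGT and 11.8% and 6.27% for the NRF1 letters GCATGCGC. The windows of the repair genes were also slightly richer in G and C, with a median of 66.3% beside 64.7%. A match is a description of letters in these windows and says nothing of binding.

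Further genes of the same pathways were read from lists. Of 15 other nucleotide excision genes tested, 3 rose, 2 fell and 10 did not pass. The 33.3% called was close to the 33.6% of all genes, and the median log2 difference was 0.051. The TFIIH subunit gene GTF2H3 rose from 57.0 ± 2.01 to 82.9 ± 2.89 CPM (SD, n = 3; log2 difference 0.54, adjusted p = 1.34e-08). The ubiquitin ligase genes CUL4A and RBX1, whose products join DDB1, were lower by -0.14 and -0.20 (adjusted p = 0.00505 and 0.0116). The RBX1 call ended when siNC replicate 2 or siCCNL2 replicate 3 was left out (-0.18 in both, adjusted p = 0.0555 and 0.0613). CUL4B, the other cullin gene of that ligase, had a difference of 0.05 and was not called (adjusted p = 0.474).

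Of 18 other base excision and strand-break genes, 1 rose, 5 fell and 12 did not pass, with a median of -0.062. The 33.3% called was again close to that of all genes, and the 5 that fell became 1 without siNC replicate 1 or siCCNL2 replicate 3, and 2 without siNC replicate 2 or siCCNL2 replicate 1. PARP3 rose (0.32, adjusted p = 0.00524; 0.23 and 0.0578 without siCCNL2 replicate 1). The 5 that fell were MPG, the alkyl-adenine glycosylase (-0.37, adjusted p = 0.00243), NEIL1 (-0.61, adjusted p = 0.0346) and SMUG1, TDG and APEX2 (-0.23, -0.16 and -0.19; adjusted p = 0.0327, 0.0308 and 0.0381). The last 3 were named after their values were seen. SMUG1 and TDG, like UNG, encode glycosylases for uracil or its relatives, as does MBD4, which was not called (-0.14, adjusted p = 0.177). APEX2 is a paralog of APEX1. MPG alone of these 5 has an adjusted p under 0.03, and MPG alone kept its call with each library left out in turn. Without siNC replicate 1 or siCCNL2 replicate 3 the other 4 were not called: NEIL1 had adjusted p of 0.0919 and 0.138, SMUG1 0.115 and 0.0656, TDG 0.116 and 0.117, and APEX2 0.0652 and 0.134. NEIL1 and APEX2 also lost the call without siNC replicate 2 or siCCNL2 replicate 1, TDG without siNC replicate 3 or siCCNL2 replicate 2, and SMUG1 without any 1 library.

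Of 13 other genes of translesion synthesis and PCNA ubiquitination, 2 rose, 2 fell and 9 did not pass (30.8% called, beside 33.6% of all genes), with a median of 0.018. USP1, which takes ubiquitin off PCNA, rose from 182 ± 4.02 to 203 ± 5.29 CPM (SD, n = 3; 0.16, adjusted p = 0.00235). The ligase genes for chain extension on PCNA split: SHPRH fell from 32.3 ± 3.83 to 24.3 ± 1.05 CPM (-0.41, adjusted p = 3.71e-04) and HLTF rose by 0.15 (adjusted p = 0.0303), a call that ended without siNC replicate 2, siNC replicate 3 or siCCNL2 replicate 3 (adjusted p = 0.0835, 0.183 and 0.122). UBE2N, their partner enzyme, was lower (-0.14, adjusted p = 0.0049). Of 20 genes for resynthesis and ligation that the pathways share with replication, 7 rose, 1 fell and 12 did not pass (40% called, beside 33.6% of all genes), with a median of 0.078. The 7 that rose became 3 without siCCNL2 replicate 3 and 4 without siNC replicate 2 or siCCNL2 replicate 2. The clamp loader gene RFC5 rose (0.29, adjusted p = 0.00215), RFC3 fell (-0.14, adjusted p = 0.0232), and POLD4 rose at a low level of 2.31 ± 0.63 CPM in the controls (0.61, adjusted p = 0.0467). The RFC3 call ended without siNC replicate 1 or 3 or siCCNL2 replicate 1 (adjusted p = 0.0761, 0.102 and 0.114). That of POLD4 ended without replicate 2 or 3 of either group (adjusted p from 0.104 to 0.196).

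Among 16 genes of the replication phase outside the set, 8 rose and none fell (50% called, beside 33.6% of all genes), with a median of 0.189. Also at an unadjusted p under 0.05 and in DESeq2 and limma-voom, 0 fell. TYMS rose by 0.55 (adjusted p = 0.00112) and RRM1 by 0.39 (adjusted p = 1.93e-08). UNG and MSH6 are known to be more abundant in that phase. The part of a shift in the share of cells in that phase in their values was not tested.

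Of 18 p53-responsive genes outside the set, 5 rose, 7 fell and 6 did not pass (66.7% called, beside 33.6% of all genes), with a median of -0.061. CDKN1A fell from 679 ± 12.7 to 468 ± 2.38 CPM (SD, n = 3; -0.54, adjusted p = 3.25e-12) and TNFRSF10B fell too (-0.51, adjusted p = 4.93e-11). BTG2 rose by 0.75 (adjusted p = 3.93e-06) and BBC3 by 0.51 (adjusted p = 9.82e-05). The p53-responsive repair genes DDB2, XPC and POLH were higher in libraries in which the other p53-responsive genes moved both ways. CDKN1A and TNFRSF10B were lower there, and BTG2 and BBC3 were higher. The part of p53 in these values was not tested.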

How the data were processed

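RNA-seq of 6 HEY libraries was analysed, 3 siCCNL2 and 3 siNC, grouped by the labels. GRCh38, HTSeq 2.0.1, HISAT2 and fastp 0.23.0 are listed in the submitters' processing notes. Annotation release and strand setting are not given in the sources used here. Raw reads per gene are what the deposited counts hold. The deposited second table holds a length-scaled score resembling TPM, as the authors made it; it was used only for levels between genes and for 2 alternatives. Total counts per library (13596286 to 18095529) and the spread between libraries of a group set the precision.

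From the counts, edgeR 4.0.16 (R 4.3.3; filterByExpr, TMM, quasi-likelihood test, group as the only term) tested 15346 genes, and p-values were adjusted by Benjamini-Hochberg; calls are adjusted p under 0.05. CPM use TMM library sizes. Alternatives used DESeq2 1.42.0, limma 3.58.1 (voom and log2 of score plus a pseudocount), other scalings and filters, a replicate term, and each library left out. The p-values set the difference between the groups against the spread of libraries within them. The labels do not say that replicates were separate cultures, so this spread may be only technical and the p-values may not extend to new cultures.

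The members and lists were chosen with earlier results of these data known. Named were CCNL2, all 35 members, up to 2 called genes per direction with the largest difference in each other list, and genes overlapping a described member in GENCODE 29. The values of 1 gene that this rule names are not reported here.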

Additional observations from a re-analysis of the deposited data

How the results depend on the processing

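Of the 16 called repair genes, 12 were called under all 16 alternatives; MUTYH, ERCC2, ERCC3 and MSH3 lost the call under 2, 6, 10 and 15, and ERCC5 and PARP2 gained it under 1 each. No gene named changed direction where it was called. The 4 nucleotide excision genes called lower became 2 without a count filter and 2 by DESeq2's Wald test, and 2 to 4 with 1 library left out. The 2 mismatch genes called higher became 1 with DESeq2 size factors, upper-quartile scaling, no composition factor, no count filter, DESeq2's Wald test, limma-voom, log2(score + 1), log2(score + 0.1) and with each library left out (1 to 1). Leaving out 1 library gave 8 to 10 repair genes higher, 4 to 6 lower, and 4179 to 4768 genes called over all tested. Libraries with the same replicate number had correlated deviations of 0.043, 0.023 and 0.026, so the numbers were not taken to pair them, although every library correlated best with its own number; with a replicate block 5234 genes were called, 9 repair genes higher and 5 lower, 3 nucleotide excision genes lower and 1 mismatch gene higher. Scalings moved the median of all genes by at most -0.018. The causes were not tested.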
